A study of Homo sapiens with 6 samples.

Results

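The mitosis and G2/M genes described here are a list of 60 named genes that act from the end of DNA replication to the parting of the daughter cells. The rule goes by symbol and uses no measured value, but the members were chosen with earlier results of these data known. The symbols were looked up through the Ensembl identifiers of the deposited table. Of the 60, 59 had a row among the 20263 genes of the table, and all 59 passed the filter on low counts and were among the 13543 genes tested. FOXM1P1 matched no row and was not analysed here.

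RNA sequencing was done on total RNA of cells labelled LNCaP, an established human prostate cancer line described in the labels as hormone-dependent. In 3 libraries the cells carried a LINC01518 overexpression vector (a long intergenic non-coding RNA), and in 3 they carried the vector without insert. The design text instead gives MEG3 as the insert, and group names follow the samples. The RNA level of the insert is not analysed here. No source used here gives the time after transfection or says whether replicates were separate cultures, so p-values reflect only the spread among libraries, possibly a technical one. Libraries held 38161544 to 42553688 counts. Of 9 luminal prostate markers, KLK3, KLK2, TMPRSS2 and FOLH1 had 0 counts in all 6 libraries. For counting error only, this allows up to 0.0705 to 0.0786 CPM relative to the unscaled total of each library. All other CPM are counts relative to the scaled size of the library. STEAP2 was too low to be tested, and HOXB13 and SLC45A3 were low, with means of 8.27 and 5.18 CPM with overexpression and 6.90 and 6.35 CPM with empty vector. The other two, the general epithelial keratin genes KRT8 and KRT18, made up most of the summed level of the 9, which was 2698 to 2867 CPM with overexpression and 2233 to 2510.1 CPM with empty vector, and KRT8 was called higher (0.29, edgeR adjusted p = 0.0187). The 4 prostate markers at 0 go against the label LNCaP, and the cells are called by their label throughout. The summed level of 6 fibroblast markers was 154 to 159 CPM with overexpression and 112 to 122 CPM with empty vector, mostly COL1A1, and 2 of the 6 were at or under 3 counts in every library. Summed levels of 6 immune markers were 2.17 to 2.87 CPM with overexpression and 1.94 to 2.59 CPM with empty vector, and those of 5 endothelial markers were 7.50 to 9.55 CPM with overexpression and 8.74 to 9.50 CPM with empty vector. The part of other cells in the results below was not tested.

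Entry into mitosis is driven by CDK1 bound to cyclins A and B, which the CDC25 phosphatases activate and the Polo and Aurora kinases reinforce. Chromosomes are condensed, attached to the spindle at kinetochores under watch of the spindle checkpoint, and released when the anaphase-promoting complex has securin and cyclin B degraded. Many of these genes are transcribed in a wave at G2 and mitosis through promoter elements named CHR, bound by complexes that contain MuvB proteins, and CCAAT boxes, bound by NF-Y. In a bulk RNA sample fewer or more cells in these phases and less or more RNA per cell cannot be told apart.

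Promoter windows of 300 bases, from 250 before to 50 after the annotated start, were taken from RefSeq (GRCh38.p14), and 51 of the 59 genes were matched. AURKA, BIRC5, BUB3, KNL1, RACGAP1, TPX2, TTK and UBE2C were not. Those of PLK1, PRC1 and NCAPH, the genes that passed the test between the groups, and of INCENP and MAD2L1, which came next, are shown 5′ to 3′ on the strand of the gene, with RefSeq's start, which can differ from the GENCODE gene ends given further on. Capitals mark TTTGAA or TTCGAA, the only CHR letters searched, and the letters CCAAT, each on either strand. No match overlaps another kind in these 5 windows.
PLK1, chr16:23678639-23678938, plus strand: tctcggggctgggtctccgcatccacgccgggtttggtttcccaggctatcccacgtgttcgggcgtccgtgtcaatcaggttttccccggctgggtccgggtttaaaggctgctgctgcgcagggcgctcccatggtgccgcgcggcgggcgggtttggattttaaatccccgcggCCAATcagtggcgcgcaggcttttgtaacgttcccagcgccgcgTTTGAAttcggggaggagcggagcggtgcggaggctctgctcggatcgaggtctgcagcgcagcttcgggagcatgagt
PRC1, chr15:90994486-90994785, minus strand: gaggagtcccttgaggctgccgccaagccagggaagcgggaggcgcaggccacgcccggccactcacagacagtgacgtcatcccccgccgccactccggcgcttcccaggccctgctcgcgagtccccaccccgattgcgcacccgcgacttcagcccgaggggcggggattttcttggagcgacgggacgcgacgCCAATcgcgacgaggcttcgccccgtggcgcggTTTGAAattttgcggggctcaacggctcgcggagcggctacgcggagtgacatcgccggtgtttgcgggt
NCAPH, chr2:96335516-96335815, plus strand: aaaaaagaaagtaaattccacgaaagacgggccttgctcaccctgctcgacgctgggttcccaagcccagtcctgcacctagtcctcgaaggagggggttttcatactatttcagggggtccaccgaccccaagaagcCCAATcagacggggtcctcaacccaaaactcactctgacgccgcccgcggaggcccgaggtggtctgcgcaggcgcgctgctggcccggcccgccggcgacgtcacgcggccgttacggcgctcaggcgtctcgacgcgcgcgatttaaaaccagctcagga
INCENP, chr11:62123761-62124060, plus strand: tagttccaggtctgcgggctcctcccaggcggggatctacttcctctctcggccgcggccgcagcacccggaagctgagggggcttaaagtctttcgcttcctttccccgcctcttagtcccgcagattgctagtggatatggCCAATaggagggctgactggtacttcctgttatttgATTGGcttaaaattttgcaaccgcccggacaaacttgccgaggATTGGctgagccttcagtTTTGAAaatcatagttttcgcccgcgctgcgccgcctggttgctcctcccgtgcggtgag
MAD2L1, chr4:120066799-120067098, minus strand: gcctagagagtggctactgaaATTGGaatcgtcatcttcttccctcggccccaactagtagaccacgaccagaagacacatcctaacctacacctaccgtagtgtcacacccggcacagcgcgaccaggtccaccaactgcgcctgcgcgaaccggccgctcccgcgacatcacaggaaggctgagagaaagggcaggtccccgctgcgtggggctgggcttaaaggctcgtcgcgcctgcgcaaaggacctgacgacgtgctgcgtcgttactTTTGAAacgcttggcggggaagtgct
PLK1, PRC1, INCENP and MAD2L1 each hold a TTTGAA, and NCAPH holds a CCAAT and neither TTTGAA nor TTCGAA in this window. Other letters of a CHR were not searched, so a window without a match is not shown to lack one. TTTGAA or TTCGAA was present in 38 of the 51 windows (74.5%), against 11.2% of the 10736 windows of genes tested and 16.6% of all 27305 windows. CCAAT was present in 39 of the 51 (76.5%), against 36.7% of genes tested and 35.7% of all windows, and both kinds were present in 31 (60.8%), against 4.82% of genes tested and 6.58% of all. Of the 50 CHR matches in these 51 windows, 37 (74%) began within 50 bases of the start, against 26.8% of the 1341 matches in windows of genes tested. These are matches of letters and not measured binding sites.

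The 59 genes were, as a list, nearly level between the groups. PLK1, PRC1 and NCAPH rose with overexpression, by less than 1.5-fold each, and 0 of the 59 fell in edgeR's quasi-likelihood test with adjustment over all genes tested. Those 3 of 59 compare with 5.6% of all genes tested that were called in either direction and 3.57% called higher, so the share of called members lay near the background. At an unadjusted p under 0.05 there were 12 of the 59, 9 higher and 3 lower, against 23.6% of all genes. DESeq2 called 5 of the 59, those 3 with INCENP higher and MAD2L1 lower, against 8.13% of the genes it tested. The log2 fold changes, overexpression over empty vector, ran from -0.27 for MAD2L1 to 0.32 for INCENP with a median of 0.03, against -0.0035 over all genes tested. Of the 59, 35 were positive and 24 negative, a split that depended on the scaling, as given further on. The 95% interval of the fold change lay within 1.5-fold either way for 58 of the 59 genes, all but BIRC5, against 73.8% of all genes tested. All 59 were measured well, with 450 to 17282 counts in every library, a median SE of 0.0666 on the log2 scale, against 0.0883 over all genes tested, and a median level of 42.2 TPM (a relative abundance per transcript length), against 19.3 TPM. The 3 libraries of each group lay apart for 15 of the 59, 11 higher and 4 lower with overexpression, against 31.4% of all genes tested.

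**Figure D1:**
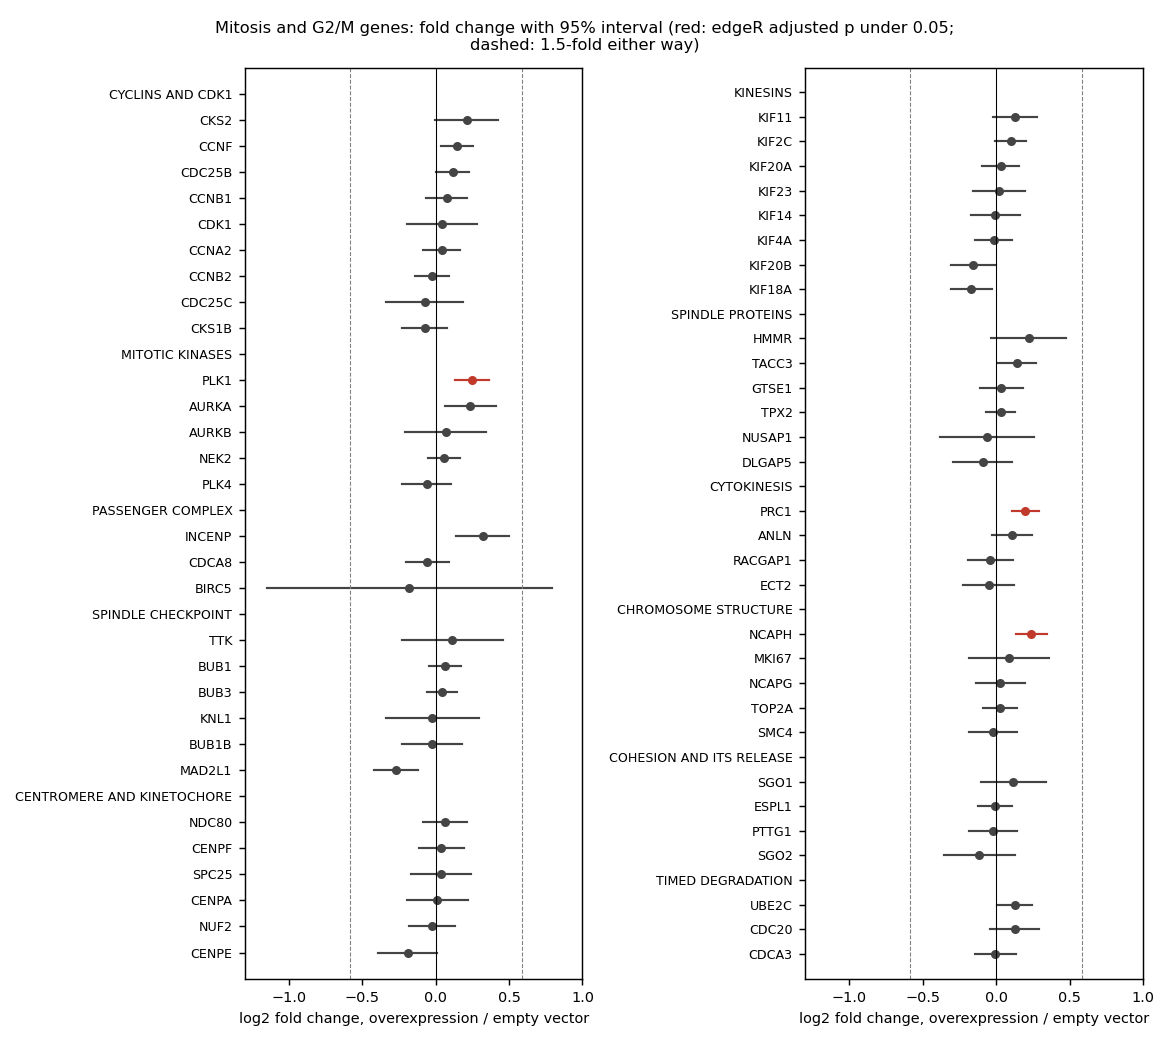
Log2 fold change (x axis, overexpression over empty vector) of each of the 59 genes with its 95% interval from the edgeR fit, grouped by role, with PLK1, PRC1 and NCAPH in red as the genes with an adjusted p under 0.05. Of the 59 intervals, 58 lie between the dashed lines that mark 1.5-fold either way, and only that of BIRC5 crosses them.

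Among the mitotic kinases, PLK1, which drives centrosome maturation, mitotic entry and cytokinesis, rose (chromosome 16, 23677656 to 23690367, GRCh38). It had 83.1, 80.1 and 79.3 CPM with overexpression, against 70.2, 65.6 and 68.8 CPM with empty vector. The groups did not overlap, and every overexpression library lay above every empty vector library. The log2 fold change was 0.25 (SE 0.0503, edgeR adjusted p = 0.0341). AURKA, the Aurora kinase of centrosomes and spindle poles, had 71.8, 65.1 and 66.6 CPM with overexpression, against 53.5, 56.0 and 63.2 CPM with empty vector. Its groups were also apart, by a small gap between overexpression replicate 2 and empty vector replicate 3, and it was not called (0.24, edgeR adjusted p = 0.112). AURKB, the kinase of the chromosomal passenger complex, had 50.4, 47.7 and 52.7 CPM with overexpression, against 44.1, 42.4 and 57.5 CPM with empty vector. Empty vector replicate 3 was the highest of the 6 and the other empty vector libraries the lowest, so the groups overlapped (0.07, edgeR adjusted p = 0.769). NEK2, which separates centrosomes, was at 0.06 and PLK4, which starts centriole duplication, at -0.06 on the log2 scale, with overlapping groups in both. Exons of PLK1 overlap an antisense gene, AC008870.3, over 553 bases, and that gene has no row among the deposited genes. Since no source used here states the strand setting of the counting, reads of such pairs cannot be told apart. Among the 59, 23 share exon bases with another gene, 20 of them with one on the opposite strand.

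Of the passenger complex, INCENP, the scaffold that binds and activates Aurora B, had 172, 181 and 177 CPM with overexpression, against 158, 141 and 125 CPM with empty vector. All overexpression libraries were higher, and the empty vector libraries were spread. Its log2 fold change was the highest of the 59 at 0.32 (SE 0.0792) and missed the threshold (edgeR adjusted p = 0.0582), but passed with DESeq2 (adjusted p = 0.00774) and, in edgeR, without empty vector replicate 1 (0.0317) or without a count filter (0.0466). Over all alternatives its adjusted p was 0.00774 to 0.166. CDCA8, which encodes borealin, was at -0.06 with overlapping groups. BIRC5, which encodes survivin, had 40.4, 38.2 and 48.2 CPM with overexpression, against 74.1, 28.7 and 40.7 CPM with empty vector. Empty vector replicate 1 was the highest and replicate 2 the lowest of the 6 libraries, and the 95% interval of the log2 fold change, -1.15 to 0.79, was the widest of the list. BIRC5 is thus the one gene here whose change could not be held within 1.5-fold at this replication.

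**Figure D2:**
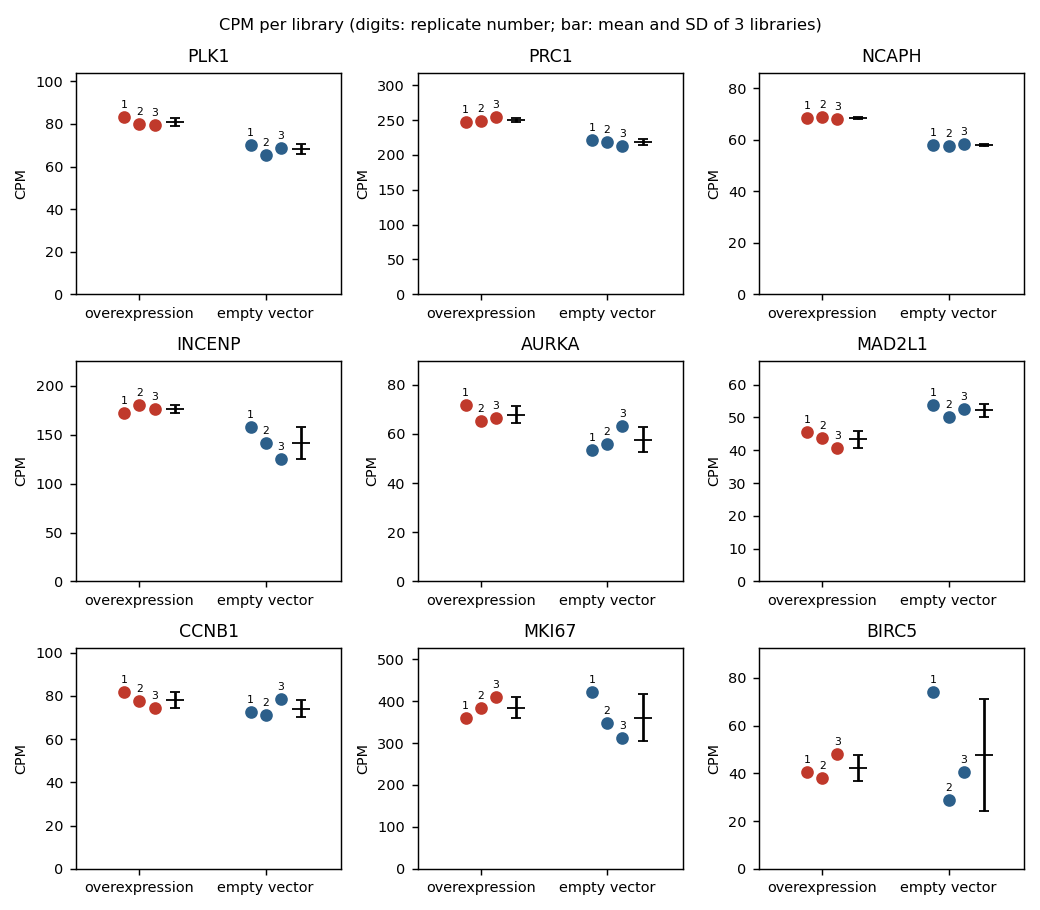
CPM per library (y axis, from 0) of 9 of the genes, overexpression in red and empty vector in blue, each point numbered by its replicate, with the mean and SD of the 3 libraries beside them. PLK1, PRC1, NCAPH, INCENP and AURKA are higher in every overexpression library and MAD2L1 is lower in every one, while the groups overlap for CCNB1, MKI67 and BIRC5.

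Of the 9 genes of cyclins, CDK1 and its activators, 0 were called by edgeR, against 5.6% of all genes tested. An unadjusted p under 0.05 was found for 2, against 23.6% of all genes tested. CDK1, the kinase itself, had 142, 112 and 133 CPM with overexpression, against 138, 123 and 115 CPM with empty vector, with overlapping groups. Its partner gene CCNB1, which encodes cyclin B1, had 81.8, 77.9 and 74.4 CPM with overexpression, against 72.5, 71.4 and 78.5 CPM with empty vector. Its groups overlapped through overexpression replicate 3 and empty vector replicate 3, and the 95% interval of the log2 fold change was -0.06 to 0.21 for CCNB1 and -0.20 to 0.28 for CDK1. CCNF, which encodes a cyclin-like substrate receptor of a ubiquitin ligase, had 73.4, 74.5 and 75.2 CPM with overexpression, against 66.4, 66.3 and 69.1 CPM with empty vector. The groups were apart, with higher values under overexpression, at 0.14 (edgeR adjusted p = 0.118). CDC25B, a phosphatase gene that helps to start CDK1 activity, had 87.4, 87.6 and 90.1 CPM with overexpression, against 84.4, 78.7 and 81.5 CPM with empty vector. It was likewise apart at 0.12 (edgeR adjusted p = 0.196), whereas CDC25C was at -0.08 with overlap. The small CDK-binding proteins are encoded by CKS1B (-0.08) and CKS2 (0.21, edgeR adjusted p = 0.216). CKS2 had 44.4, 40.3 and 50.2 CPM with overexpression, against 37.969, 36.7 and 41.8 CPM with empty vector, and both genes had overlapping groups. CCNA2 and CCNB2 were at 0.04 and -0.02.

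Of the 6 checkpoint genes, which hold anaphase until every kinetochore is attached, 0 were called by edgeR, against 5.6% of all genes tested. Only 1, MAD2L1, had an unadjusted p under 0.05, against 23.6% of all genes tested. MAD2L1, which encodes the checkpoint effector Mad2 (chromosome 4, 120055608 to 120067074), had 45.6, 43.7 and 40.6 CPM with overexpression, against 53.9, 49.982 and 52.7 CPM with empty vector. Every overexpression library was below every empty vector library, and the log2 fold change was the lowest of the 59 at -0.27 (SE 0.0653, edgeR adjusted p = 0.0550). It passed with DESeq2 (adjusted p = 0.0142), with upper-quartile scaling (0.0471) and when scaled by library size alone (0.0427), and over all alternatives its adjusted p was 0.0142 to 0.174. BUB1, a checkpoint kinase gene, was apart in the other direction at 0.06, from 75.2, 79.4 and 75.2 CPM with overexpression, against 73.4, 74.1 and 72.6 CPM with empty vector. BUB3, a partner of BUB1, was at 0.04 and BUB1B, the gene of BubR1, at -0.02, and both overlapped. TTK, the kinase gene that starts the checkpoint signal, had 28.3, 26.9 and 26.9 CPM with overexpression, against 31.8, 21.9 and 22.1 CPM with empty vector. KNL1, the kinetochore platform of the BUB proteins, had 36.7, 34.9 and 38.3 CPM with overexpression, against 45.8, 32.0 and 33.8 CPM with empty vector. In TTK and KNL1 the highest of the 6 values was that of empty vector replicate 1, and the other 2 empty vector libraries were the lowest.

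The 6 genes of centromere and kinetochore held 0 called genes and 0 at an unadjusted p under 0.05. The shares of all genes tested were 5.6% and 23.6%. CENPE, a motor that carries chromosomes to the spindle equator, had 21.4, 25.9 and 24.1 CPM with overexpression, against 26.2, 26.3 and 28.977 CPM with empty vector. Its groups were apart by a narrow margin at -0.19 (edgeR adjusted p = 0.233). NDC80, NUF2 and SPC25, subunits of the complex that grips microtubules, were at 0.06, -0.03 and 0.04, CENPA, the histone variant of centromeres, at 0.01, and CENPF, a large kinetochore protein gene, at 0.04. The groups overlapped in each of these.

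Among the 8 kinesin genes, which encode motors and microtubule depolymerases, 0 were called by edgeR, against 5.6% of all genes tested. KIF18A and KIF20B had an unadjusted p under 0.05, against 23.6% of all genes tested. KIF18A, which dampens chromosome movements, had 46.6, 47.3 and 46.7 CPM with overexpression, against 54.9, 53.6 and 49.5 CPM with empty vector. KIF20B, a motor of cytokinesis, had 49.997, 56.7 and 52.7 CPM with overexpression, against 62.1, 58.4 and 57.0 CPM with empty vector. Both were lower in every overexpression library, at -0.17 (edgeR adjusted p = 0.140) and -0.15 (edgeR adjusted p = 0.207). KIF2C, the microtubule depolymerase of centromeres, had 148, 144 and 137 CPM with overexpression, against 132, 133 and 135 CPM with empty vector. It was higher in every overexpression library, at 0.10 (edgeR adjusted p = 0.229). KIF11, which pushes spindle poles apart, was at 0.13 with overlap. KIF4A, KIF14, KIF20A and KIF23 lay between -0.02 and 0.03.

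Of the 6 other spindle protein genes, 0 were called by edgeR, against 5.6% of all genes tested. Only 1, TACC3, had an unadjusted p under 0.05, against 23.6% of all genes tested. TACC3, which stabilises the microtubules of kinetochore fibres, had 83.3, 79.3 and 75.8 CPM with overexpression, against 74.6, 69.5 and 71.7 CPM with empty vector. The groups were apart and higher with overexpression at 0.14 (edgeR adjusted p = 0.171). HMMR, a spindle assembly gene, had 21.5, 28.3 and 23.1 CPM with overexpression, against 22.1, 21.1 and 19.3 CPM with empty vector. Overexpression replicate 2 stood above the rest and the groups overlapped (0.22, edgeR adjusted p = 0.280), and DLGAP5, whose protein stabilises kinetochore fibres, was at -0.09. NUSAP1, a microtubule-bundling protein gene, was at -0.06 and GTSE1, a microtubule-binding protein gene, at 0.03, with overlapping groups. Exons of NUSAP1 share 1787 of 2875 bases with AC087721.2 on the same strand, which has no row among the deposited genes. Part of the reads counted for NUSAP1 could come from that gene. TPX2, the activator of Aurora A, had 237 ± 3.92 CPM with overexpression and 232 ± 7.36 CPM with empty vector (SD, n = 3 each).

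Of the 4 cytokinesis genes, PRC1, which bundles the microtubules of the central spindle, rose (chromosome 15, 90966038 to 90995629). It had 248, 249 and 254 CPM with overexpression, against 222, 219 and 213 CPM with empty vector. The groups did not overlap, and the log2 fold change was 0.20 (SE 0.0399, edgeR adjusted p = 0.0323). Exons of PRC1 share 3181 bases with AC068831.7 on the same strand and 406 with the antisense gene PRC1-AS1. Neither has a row among the deposited genes, and part of the reads counted for PRC1 could come from these. ANLN, the gene of the contractile ring scaffold anillin, had 136, 135 and 144 CPM with overexpression, against 137, 129 and 119.8 CPM with empty vector. Its groups overlapped through empty vector replicate 1. ANLN was at 0.11, ECT2, which activates RhoA at the cleavage plane, at -0.05, and its partner gene RACGAP1 at -0.04, each with overlap.

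Of the 5 genes of chromosome structure, NCAPH, which encodes the kleisin subunit of condensin I, rose (chromosome 2, 96335787 to 96373845). It had 68.6, 68.7 and 68.2 CPM with overexpression, against 58.0, 57.6 and 58.4 CPM with empty vector. The libraries of each group lay close together and the groups were apart, at 0.24 (SE 0.0466, edgeR adjusted p = 0.0298). Of its condensin partners, NCAPG was at 0.03 (95% interval -0.14 to 0.20) and SMC4 at -0.02 (-0.19 to 0.14), and whether they differed from NCAPH was not tested. Exons of NCAPG share 1631 bases with LCORL, and those of SMC4 share 1561 with TRIM59 and 607 with IFT80, all on the opposite strand. With the strand setting not stated, reads of these pairs cannot be told apart either. TOP2A, the topoisomerase that untangles sister DNA, had 371, 389.6 and 367 CPM with overexpression, against 385, 372 and 351 CPM with empty vector. MKI67, the gene of the proliferation marker Ki-67, had 359, 384 and 409 CPM with overexpression, against 422, 348 and 313 CPM with empty vector. Both overlapped, and in MKI67 the highest and the lowest of the 6 values were both from empty vector libraries.

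Genes of sister cohesion and its release held 0 called of 4 by edgeR and 0 at an unadjusted p under 0.05. The shares of all genes tested were 5.6% and 23.6%. SGO1 and SGO2, which shield cohesion at centromeres, were at 0.12 and -0.12. ESPL1, the separase gene, was at -0.01 and PTTG1, the securin gene, at -0.02. PTTG1 had 82.6, 77.4 and 84.4 CPM with overexpression, against 86.2, 74.6 and 86.8 CPM with empty vector, with overlapping groups. Of 3 genes of timed degradation, 0 were called by edgeR and 1 had an unadjusted p under 0.05, against the same shares of all genes. UBE2C, the ubiquitin-conjugating enzyme of the anaphase-promoting complex, had 73.5, 78.2 and 75.5 CPM with overexpression, against 67.4, 68.8 and 71.9 CPM with empty vector. It was higher in every overexpression library at 0.13 and was not called (edgeR adjusted p = 0.188). CDC20, which activates that complex, had 89.7, 82.1 and 86.6 CPM with overexpression, against 72.2, 78.4 and 86.3 CPM with empty vector. Its groups overlapped through empty vector replicate 3 (0.13, edgeR adjusted p = 0.336), and CDCA3, a regulator of mitotic entry, was at -0.0045.

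The calls of PLK1, PRC1 and NCAPH rested on all 6 libraries. In the 6 fits without 1 library, which hold fewer samples, PLK1 and NCAPH were called in 0 and PRC1 in 1, without empty vector replicate 1. Their edgeR adjusted p in these fits was 0.0519 to 0.120 for PLK1, 0.0487 to 0.127 for PRC1 and 0.0533 to 0.111 for NCAPH. The log2 fold changes moved little, 0.22 to 0.26 for PLK1, 0.18 to 0.21 for PRC1 and 0.23 to 0.25 for NCAPH. The number called varied with the method. With edgeR, RLE scaling gave 3 (5.57% of all genes), upper-quartile scaling 4 (5.32%), library size alone 2, NCAPH higher and MAD2L1 lower (5.38%), no count filter 4 (4.85%) and a filter of 50 counts in 3 libraries 3 (6.3%), and limma-voom gave 3 (5.52%). With the replicate number as a block edgeR called 0 (1.71%), and without an overexpression library 0 in each of the 3 fits (1.7%, 1.73% and 1.41% of all genes). On the deposited TPM, limma called 0 of the 59, against 1.66% of all genes on log2(TPM + 0.1) and 1.62% on log2(TPM + 1). PLK1 had 80.0 ± 1.73 TPM with overexpression and 65.4 ± 2.75 TPM with empty vector (SD, n = 3 each), a log2 fold change of 0.29 on the log2(TPM + 1) scale (limma adjusted p = 0.0535). PRC1 and NCAPH were farther from the threshold, at 0.19 (limma adjusted p = 0.123) and 0.18 (limma adjusted p = 0.162) on the log2(TPM + 1) scale. The median log2 fold change of the 59 on that scale was -0.0095, against -0.0406 over all genes tested, so the whole scale lay lower than that of the counts, where the medians were 0.03 and -0.0035. On TPM, 27 of the 59 were positive and 32 negative, and 14 differed in sign from the count fit, where none of the 14 exceeded 0.074 in size. Scaled by library size alone, 29 were positive, with a median of -0.0007 against -0.0356 over all genes tested.

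**Figure D3:**
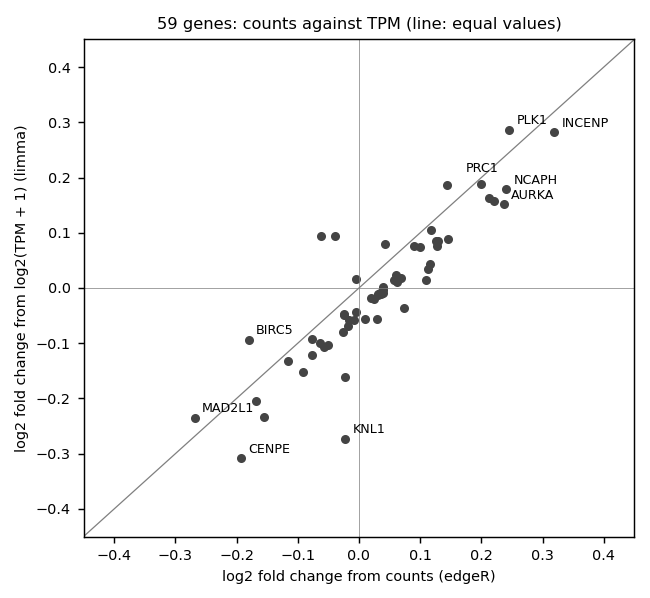
Log2 fold change of each of the 59 genes from counts with edgeR (x axis) and from log2(TPM + 1) with limma (y axis), both overexpression over empty vector, with the line of equal values. PLK1, PRC1, NCAPH, INCENP and AURKA are positive and MAD2L1 and CENPE negative on both scales, and KNL1 is among those that lie farthest from the line. Of the 59, 14 differ in sign between counts and TPM.

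The levels of the 59 spanned a wide range per length. CKS1B was the most abundant at 459 ± 24.4 TPM with overexpression and 499 ± 29.5 TPM with empty vector (SD, n = 3 each), followed by PTTG1, UBE2C, PRC1 and CKS2. CKS1B and PTTG1 have closely similar copies elsewhere in the genome, so their reads can be shared and their levels are uncertain. CENPE was the least abundant at 6.53 ± 0.456 TPM with overexpression and 8.34 ± 0.939 TPM with empty vector, below SGO2, KIF14, KNL1 and PLK4. With the genes put in order of mean TPM, 3 of the 58 neighbouring pairs had ranges over the 6 libraries that did not overlap, CKS1B above PTTG1, PTTG1 above UBE2C and TOP2A above KIF2C, and the order of the other 55 pairs was within the spread. Of the 59, 47 had a mean TPM above the median of the genes tested.

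The libraries of empty vector differed from one another in these genes. Relative to each gene's mean over the 6 libraries, the median of the 59 lay at 0.011, 0.036 and 0.022 in the overexpression libraries and at 0.044, -0.060 and -0.034 in the empty vector libraries on the log2 scale, while the median over all genes tested was at most 0.0040 in any library. Of the 59 genes, 21 (35.6%) had their highest value in empty vector replicate 1, against 22.7% of all genes tested. Empty vector replicate 2 held the lowest value of 22 of the 59 (37.3%), against 14.0% of all genes. Members above their own mean numbered 35, 41 and 32 in the overexpression libraries and 40, 10 and 19 in the empty vector libraries. The 59 took 0.502%, 0.507% and 0.510% of all counts with overexpression and 0.530%, 0.485% and 0.483% with empty vector. Without empty vector replicate 1 the median log2 fold change of the 59 was 0.06, 46 were positive and edgeR called 2, PRC1 and INCENP, against 3.02% of genes tested. Without empty vector replicate 2 the median was 0.01 with 0 called (2.03% of genes tested) and without replicate 3 it was 0.02 with 0 called (3.35%). The SD between libraries was larger with empty vector than with overexpression for 39 of the 59 (66.1%), against 59.3% of all genes tested, with BIRC5, TTK, KNL1 and AURKB the most spread. PLK1, PRC1 and NCAPH were not among the 21, and in those 3 empty vector replicate 1 lay with the other empty vector libraries.

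**Figure D4:**
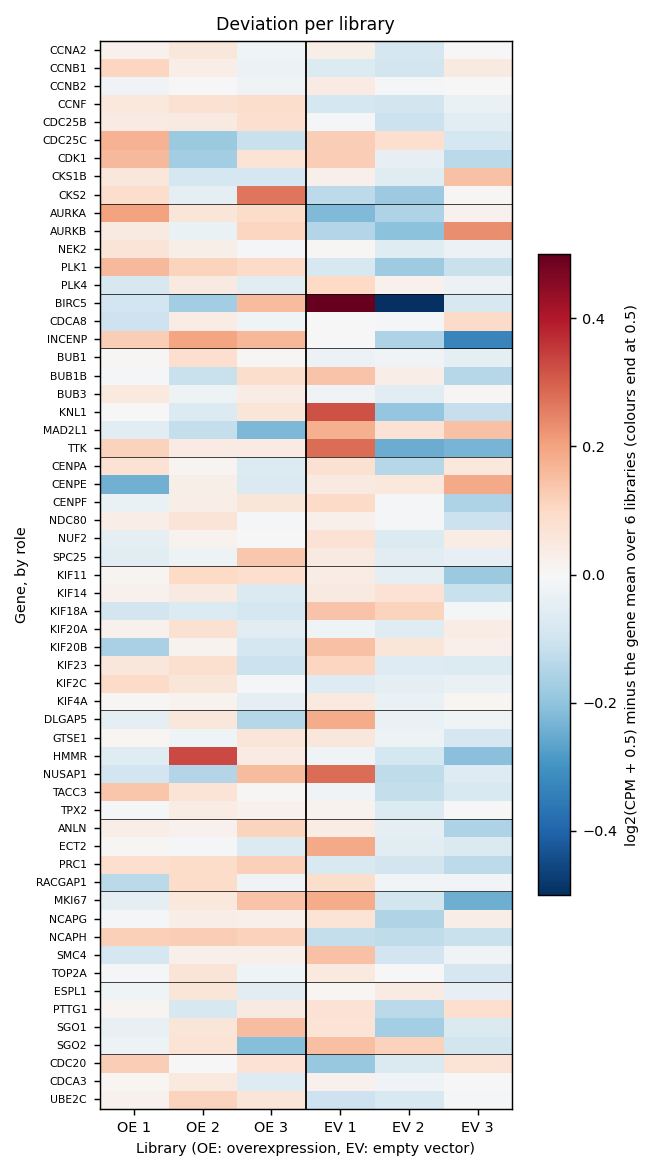
Deviation of each of the 59 genes in each library from its mean over the 6 libraries, in log2(CPM + 0.5), with overexpression libraries (OE) left of empty vector libraries (EV) and genes grouped by role. The column of empty vector replicate 1 is mostly red, with 40 of the 59 above their mean, and that of empty vector replicate 2 mostly blue, with 10 above.

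A further 117 genes of mitosis, listed by function, had 4 called higher and 0 lower by edgeR, against 5.6% of all genes tested. At an unadjusted p under 0.05 there were 25, against 23.6% of all genes tested, and the median log2 fold change was -0.0046. KIFC1, a spindle motor gene, had 117 ± 4.36 CPM with overexpression and 100.1 ± 1.56 CPM with empty vector (SD, n = 3 each), a log2 fold change of 0.23. FAM83D, which anchors a kinase to the spindle, was at 0.23, MYBL2, the B-MYB factor that activates genes of G2 and mitosis through CHR elements, at 0.20, and RAD21, the cohesin kleisin gene, at 0.17 (edgeR adjusted p = 0.0358, 0.0375, 0.0382 and 0.0471). By function, 1 of 19 regulators, 0 of 7 checkpoint genes, 0 of 26 kinetochore genes, 2 of 34 spindle and cytokinesis genes, 1 of 14 condensin and cohesin genes and 0 of 17 genes of the anaphase-promoting complex were called. Scaled by library size alone, 0 of the 117 were called (5.38% of all genes tested). Without 1 library edgeR called 0 to 2, against 1.41% to 3.35% of all genes tested. The 2, both lower, came without empty vector replicate 3 (3.35%).

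Genes of G1/S and DNA replication, which come earlier in the cycle, had 9 of 30 higher and 0 lower by edgeR, against 3.57% of all genes tested called higher and 5.6% called either way. Their median log2 fold change was 0.18, and the difference from the 59 mitosis and G2/M genes was not tested. The list of 30 was chosen with earlier results of these data known, so its share is not an independent comparison. The number called fell to 1 on either TPM scale (1.66% and 1.62% of all genes), 3 with the replicate block (1.71%) and 1 to 5 without 1 library (1.41% to 3.35%). Of the 30, 22 to 25 were positive in all these fits. The 9 were TYMS, CDT1, MCM3, FEN1, ORC1, E2F1, MCM5, POLD3 and MCM2, with TYMS, the thymidylate synthase gene, at 147 ± 3.98 CPM with overexpression and 113 ± 2.16 CPM with empty vector (SD, n = 3 each) (0.38, edgeR adjusted p = 0.00656). Of 12 genes that restrain the cycle, also chosen with earlier results known, 3 were called by edgeR, against 5.6% of all genes tested. On log2(TPM + 0.1) limma called 2 of the 12, against 1.66% of all genes. CDKN2C, an inhibitor of CDK4 and CDK6, rose, with 72.2 ± 1.15 CPM with overexpression and 50.5 ± 3.07 CPM with empty vector (SD, n = 3 each) (0.52, edgeR adjusted p = 0.00639). SFN, the gene of 14-3-3 sigma, which keeps CDK1 complexes in the cytoplasm, also rose, with 372 ± 8.91 CPM with overexpression and 283 ± 7.32 CPM with empty vector (SD, n = 3 each). CDKN2B, which encodes another inhibitor of those kinases, fell, with 24.1 ± 1.70 CPM with overexpression and 35.9 ± 1.92 CPM with empty vector (SD, n = 3 each) (-0.58, edgeR adjusted p = 0.00977). CDKN1A, which encodes p21, had 133, 139 and 134 CPM with overexpression, against 59.5, 164 and 66.6 CPM with empty vector, with overlapping groups (0.48, edgeR adjusted p = 0.577).

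**Figure D5:**
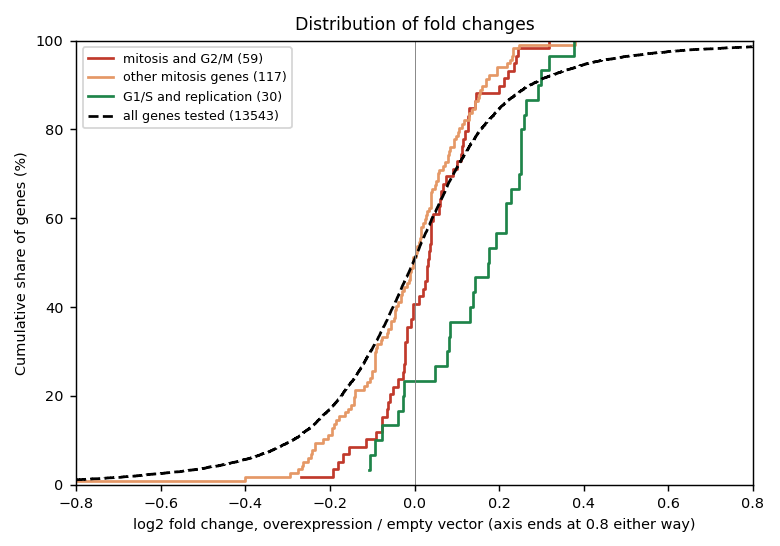
Cumulative share of genes (y axis, percent) by log2 fold change (x axis, overexpression over empty vector) for the 59 mitosis and G2/M genes, 117 other mitosis genes, 30 genes of G1/S and replication and all 13543 genes tested. The curve of the 59 is steeper than that of all genes and crosses 50% at 0.03, and that of the 30 crosses it at 0.18.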

How the data were processed

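The submitters' processing notes name Trimmomatic 0.36, HISAT2, featureCounts, Subread 1.5.1 and DESeq, and the build GRCh38. Not given in the sources used here are the annotation release, the strand setting and the TPM tool. The deposited gene counts were used as raw counts, and the deposited TPM, made by the authors, served for levels and for limma fits on log2(TPM + 0.1) and log2(TPM + 1). Genes were filtered with a minimum count of 10 (total 15). The 3 overexpression libraries were compared with the 3 empty vector libraries by edgeR 4.0.16 (R 4.3.3; TMM scaling, robust quasi-likelihood F test), with Benjamini-Hochberg adjustment over all 13543 genes and a threshold of 0.05. CPM other than the floors are TMM-scaled, and intervals use the total degrees of freedom of the fit. Alternatives were other scalings and filters, DESeq2 1.42.0, limma 3.58.1, a replicate block and leaving out each library; those for the genes of G1/S and of cycle restraint were chosen after seeing the data. Code was tested on simulated data. The main comparison has no replicate block. No source used here says that a number marks a shared culture or day, and deviations of same-numbered libraries correlated by less than 0.1. Gene positions come from GENCODE 29 and promoters from RefSeq. The members and gene lists were chosen with earlier results of these data known. By rule, 40 members were named: those called, the 3 of each role with the smallest p, the 5 highest and 5 lowest in TPM, and 6 well-known ones. The other 19 are named so that every member is accounted for. Called genes of the other lists were also named. Of the luminal markers, 1 is not reported here. Floors cover counting error only.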

Additional observations from a re-analysis of the deposited data

How the results depend on the processing

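With RLE, upper-quartile or library-size scaling, other count filters and limma-voom, edgeR or limma called 2 to 4 of the 59 genes, within 1.5 times of the 3 reported. DESeq2 called 5 of the 59 and 7 of the other 117 mitosis genes, against 3 and 4 in the main comparison. It also called more of all genes, 8.13% against 5.6%. On log2(TPM + 0.1) and log2(TPM + 1) limma called 0 of the 59 and 0 of the 117, and the median log2 fold change of the 59 was -0.0098 and -0.0095, against -0.0464 and -0.0406 over all genes. Relative to all genes the 59 thus lay slightly higher, as in the counts of the same libraries (0.03 against -0.0035). The median of the 59 itself varied among libraries of a group, with a pooled SD of 0.039 on the log2 scale. Whether the list as a whole shifted was not tested. Scaling by library size alone gave 0 of the 117. Of the 30 genes of G1/S and replication, 9 in the main comparison, 1 was called on either TPM scale, 3 with the replicate block and 1 to 5 without 1 library, in alternatives chosen after seeing the data. Without 1 library, 0 to 2 of the 59 and 0 to 2 of the 117 were called, against 1.41% to 3.35% of all genes. The median of the 59 was then 0.01 to 0.06. The cause of these differences was not tested. By design, fits without 1 library hold fewer samples, and the replicate block leaves fewer residual degrees of freedom. Same-numbered libraries deviated together only weakly (r = 0.0367, 0.0547 and 0.0449), so the numbers were not taken to pair them. All 6 libraries nonetheless correlated best with their own number, a hint from the data and not from the design. These 6 matches share the same few correlations and are not independent, so they cannot decide whether the numbers pair the libraries. With the replicate block 0 of the 59, 0 of the 117 and 232 of all genes were called, against 759 without it. PLK1, PRC1 and NCAPH kept their direction under all 16 alternatives. A 95% interval within 1.5-fold does not show that a gene was unchanged, and 3 libraries a group limit how small a change could be called.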
